A study of Rattus norvegicus with 6 samples.

Results

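Nes and Des, the intermediate filament genes nestin and desmin, rose in kidneys of a rat model of focal segmental glomerulosclerosis (FSGS), and Podxl, which codes for the podocyte surface protein podocalyxin, fell, with a call that was lost without any 1 of 5 libraries. These 3 genes and Wt1, which codes for a transcription factor that podocytes need, are described here across all libraries of the series. The 4 genes were taken by Ensembl gene ID and expected chromosome, out of 21986 genes in the deposited table, and all 4 IDs were found on that chromosome: Wt1 (ENSRNOG00000013074, chromosome 3), Podxl (ENSRNOG00000012495, chromosome 4), Nes (ENSRNOG00000018681, chromosome 2) and Des (ENSRNOG00000019810, chromosome 9). The table gives no gene symbols, so the name of each gene rests on its ID; the RefSeq gene of that symbol lies on the same chromosome in all 4 cases.

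The FSGS group held 3 kidney libraries of male Wistar rats, labelled as wild type, whose left kidney had been removed. They had received adriamycin, an anthracycline drug that injures podocytes in rats, into the tail vein, first 5 mg/kg on postoperative day 7 and then 3 mg/kg on postoperative day 28. The control group held 3 kidney libraries of male Wistar rats, also labelled as wild type, injected with saline; no surgery is stated for them. Surgery and drug therefore cannot be told apart, and age, the part of the kidney taken and the day it was taken are not given in the sources used here. All 6 titles carry the word untreated, although the treatment entries list surgery and injections. The labels do not state that the libraries come from different animals; p-values therefore reflect only the variation among these libraries, some of which may be technical.

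Podocytes are the epithelial cells that wrap the capillaries of the glomerulus, the filtering unit of the kidney, and their interlocking foot processes hold back plasma protein. Wt1 marks podocytes and, more weakly, the parietal cells of the glomerular capsule, and its product acts on genes of the mature podocyte, Podxl among them. Podocalyxin is a heavily charged sialomucin that keeps foot processes and the slits between them open; endothelial cells make it too. Nestin is an intermediate filament protein of progenitor cells, also found in podocytes and in endothelium of new vessels. Desmin is the muscle intermediate filament protein, made in the kidney by mesangial and vascular smooth muscle cells, and in rats its appearance in podocytes is widely used as a sign of podocyte injury. None of the 4 genes is thus made by podocytes alone. In RNA of bulk kidney tissue, fewer cells of a type and less RNA per cell cannot be told apart.

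The promoters of Des, which rose, and Podxl, which fell, are shown because both annotated starts coincide with the start of the gene in RefSeq. Each run is the 250 bases before that start in RefSeq assembly GRCr8, read 5′ to 3′ on the strand of the gene. Capitals mark GC boxes (GGGCGG, searched on both strands), which Sp-family factors bind, and the E-box CAGCTG, which reads alike on both strands.
Des promoter (GRCr8 chr9:84299376-84299625, plus strand): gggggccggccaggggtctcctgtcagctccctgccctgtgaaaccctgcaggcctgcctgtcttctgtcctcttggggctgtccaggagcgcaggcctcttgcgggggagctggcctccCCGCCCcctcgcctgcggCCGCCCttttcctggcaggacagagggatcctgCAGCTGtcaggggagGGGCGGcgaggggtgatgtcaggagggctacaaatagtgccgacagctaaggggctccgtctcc
Podxl promoter (GRCr8 chr4:61149132-61149381, minus strand): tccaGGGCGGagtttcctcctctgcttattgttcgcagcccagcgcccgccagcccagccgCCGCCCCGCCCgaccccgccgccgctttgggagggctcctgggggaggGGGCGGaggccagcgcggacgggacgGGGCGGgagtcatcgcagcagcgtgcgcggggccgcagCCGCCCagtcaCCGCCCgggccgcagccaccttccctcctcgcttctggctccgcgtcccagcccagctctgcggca

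The Podxl window held 7 GC boxes and the Des window 3, and the windows of Nes and Wt1, cut in the same way, held 2 and 0. A GC box was present in 30.5% of 33461 RefSeq promoter windows of that length. The E-box was present once in the Des window, ending 73 bases before the start, and in none of the other 3; 12.0% of all windows held it. The TATA box (TATAAA, both strands) was in none of the 4 windows and in 12.9% of all windows. The pattern GNGNGGGNG, which covers forms bound by EGR factors and by the Wt1 protein, was searched on both strands and matched 3 times in Podxl, 3 times in Des, once in Nes and 0 times in Wt1, and 33.0% of all windows held it. All 3 of these matches in Podxl and 2 of the 3 in Des overlapped a GC box. In Podxl and in Des alike, 2 of the 3 matches also overlapped each other. The windows were rich in G and C, at 76.4% in Podxl, 71.6% in Wt1, 68.8% in Des and 60.4% in Nes, which favours GC-rich patterns. The starts used for the Nes and Wt1 windows lie inside their RefSeq genes, 873 and 2288 bases from the first base, so their letters are not shown. These matches describe the letters alone, as the series holds no binding data. The deposited table's own genome build is not given in the sources used here.

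RNA levels are given as FPKM, fragments counted relative to gene length and to library total, as the authors deposited them. Their read depth is unknown, so counting error cannot be stated. Changes were tested as FSGS minus control on log2(FPKM + 1) with limma over the 14139 genes with a mean of at least 0.5 FPKM, and a gene was called at a Benjamini-Hochberg adjusted p under 0.05. Of the genes tested, 44.0% were called, 27.0% as higher and 17.0% as lower in FSGS, so a call by itself is common in this comparison. Column scaling moved the split of 3814 higher and 2408 lower genes, to 3463 and 3485 with median-of-ratios scaling, 3620 and 3386 with quantile normalization, and 2012 and 3191 after rescaling to TPM, which sets all column totals equal. It moved the other way, to 5606 and 2298, after rescaling without mitochondrial and the most abundant nuclear genes. Over all genes tested the median log2 change was 0.11 as deposited and 0.22 with that last rescaling, under which the log2 changes were -0.68 for Podxl, 1.09 for Nes and 1.07 for Des, all called (limma adjusted p = 0.0397, 0.00839 and 0.00613). Mitochondrial genes took 64.0% to 71.7% of summed FPKM in FSGS libraries and 51.6% to 62.9% in control libraries. Markers of the kidney and of other glomerular, muscle and endothelial cells were not analysed here for want of gene names, so the part of other cell types in these levels was not tested.

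Of the 4 genes, 3 passed the filter on low values. All 3 were called, Nes and Des as higher in FSGS and Podxl as lower. Their FSGS and control values did not overlap, which was true of 55.6% of all genes tested, with 34.6% higher and 21.0% lower in FSGS. Wt1 did not pass the filter.

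**Figure D1:**
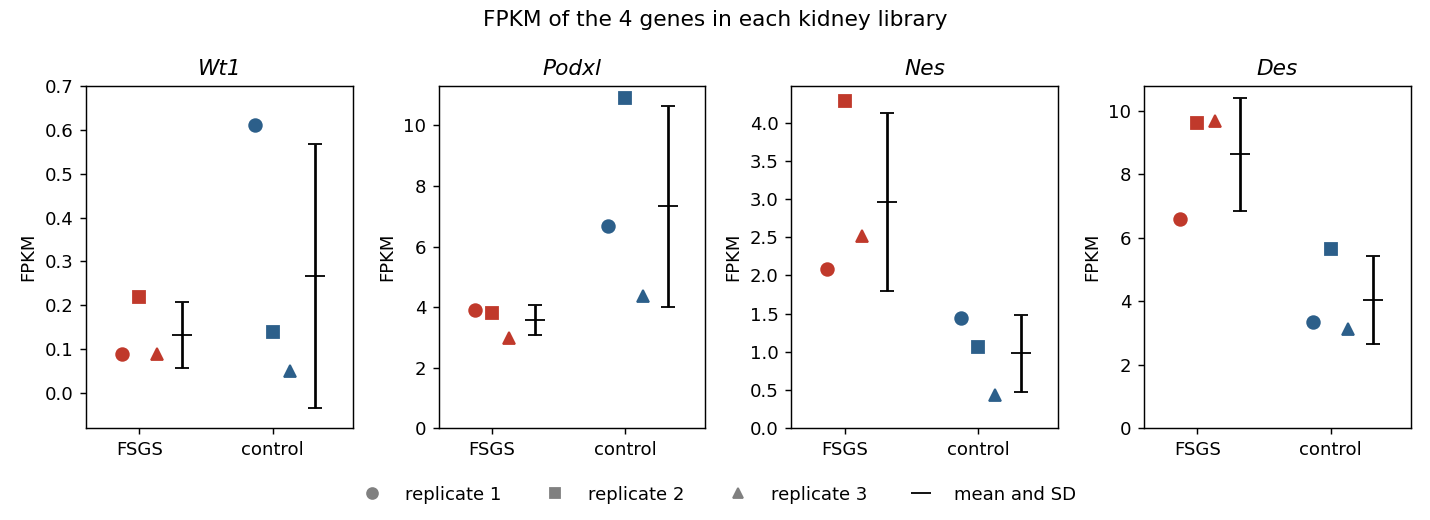
FPKM of Wt1, Podxl, Nes and Des in each library; each panel has its own linear vertical axis, points are libraries with FSGS in red and control in blue, and the bar beside each group is its mean and SD (n = 3). All 3 FSGS points lie above all 3 control points for Nes and Des and below them for Podxl, while the groups overlap for Wt1, whose values lie between 0.05 and 0.61 FPKM.

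Desmin RNA stood at 6.58, 9.62 and 9.67 FPKM in FSGS replicates 1, 2 and 3, against 3.35, 5.63 and 3.13 FPKM in control replicates 1, 2 and 3. The groups did not overlap, and FSGS 1 and control 2 were the pair nearest to each other. Des averaged 8.62 ± 1.77 FPKM in FSGS and 4.04 ± 1.38 FPKM in control kidneys (SD, n = 3 each), a ratio of means of 2.14. The log2 change was 0.95 ± 0.22 (SE; limma adjusted p = 0.00744). A change at least this high was seen in 9.59% of the genes tested. The size of this log2 change fell to 0.59 with a pseudocount of 5.

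Nestin RNA was lower in FPKM than desmin RNA in all 6 libraries. It stood at 2.09, 4.29 and 2.52 FPKM in FSGS replicates 1, 2 and 3, against 1.44, 1.06 and 0.44 FPKM in control replicates 1, 2 and 3. All FSGS values exceeded all control values, with the highest FSGS value in replicate 2. Nes averaged 2.97 ± 1.17 FPKM in FSGS and 0.98 ± 0.50 FPKM in control kidneys (SD, n = 3 each), a ratio of means of 3.03. The log2 change was 1.00 ± 0.25 (SE; limma adjusted p = 0.0116), and 8.73% of the genes tested had a change at least this high. Because the level is low, the log2 change depended strongly on the pseudocount, with 1.57 at 0.1 and 0.41 at 5.

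On the log2(FPKM + 1) scale, Podxl had the widest spread of the 4 genes among controls. The ratio of highest to lowest control FPKM, with nothing added, was 12.2 for Wt1, 3.27 for Nes, 2.49 for Podxl and 1.80 for Des. Podxl stood at 3.92, 3.80 and 2.99 FPKM in FSGS replicates 1, 2 and 3, against 6.69, 10.91 and 4.38 FPKM in control replicates 1, 2 and 3. The groups did not overlap, but FSGS 1 and control 3 lay close together. Podxl averaged 3.57 ± 0.51 FPKM in FSGS and 7.33 ± 3.31 FPKM in control kidneys (SD, n = 3 each), a ratio of means of 0.487. The SD of its log2 values was 0.17 among FSGS libraries, near the median of 0.17 over all genes tested. Among control libraries it was 0.57, larger than that of 97.3% of the genes tested. The control SD was also large for Nes, at 0.39, and Des, at 0.37, above that of 91.4% and 90.6% of the genes tested. Unlike for Podxl, the FSGS SD was large too, at 0.40 for Nes and 0.28 for Des, above that of 90.7% and 79.3%. The log2 change of Podxl was -0.80 ± 0.26 (SE, limma adjusted p = 0.0356), and 10.0% of the genes tested had a change at least this low.

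The Podxl call was close to the threshold. With all genes above 0 in at least 1 library in the fit, its limma adjusted p was 0.084, and leaving out FSGS replicate 1, 2 or 3 or control replicate 1 or 2 gave 0.055, 0.0645, 0.0923, 0.0769 and 0.0802 in that order, so that the call was lost each time. Without control replicate 2, its highest value, the log2 change was -0.50; without control replicate 3, its lowest control value, it was -1.07 with a limma adjusted p of 0.00912. The direction was the same with median-of-ratios scaling, quantile normalization, rescaling to TPM and rescaling without mitochondrial and the most abundant nuclear genes. The other alternatives could not reverse it, as the groups did not overlap. Nes kept its call in all 16 alternatives that tested it and Des in all 17, with limma adjusted p of at most 0.0439 and 0.0337.

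**Figure D2:**
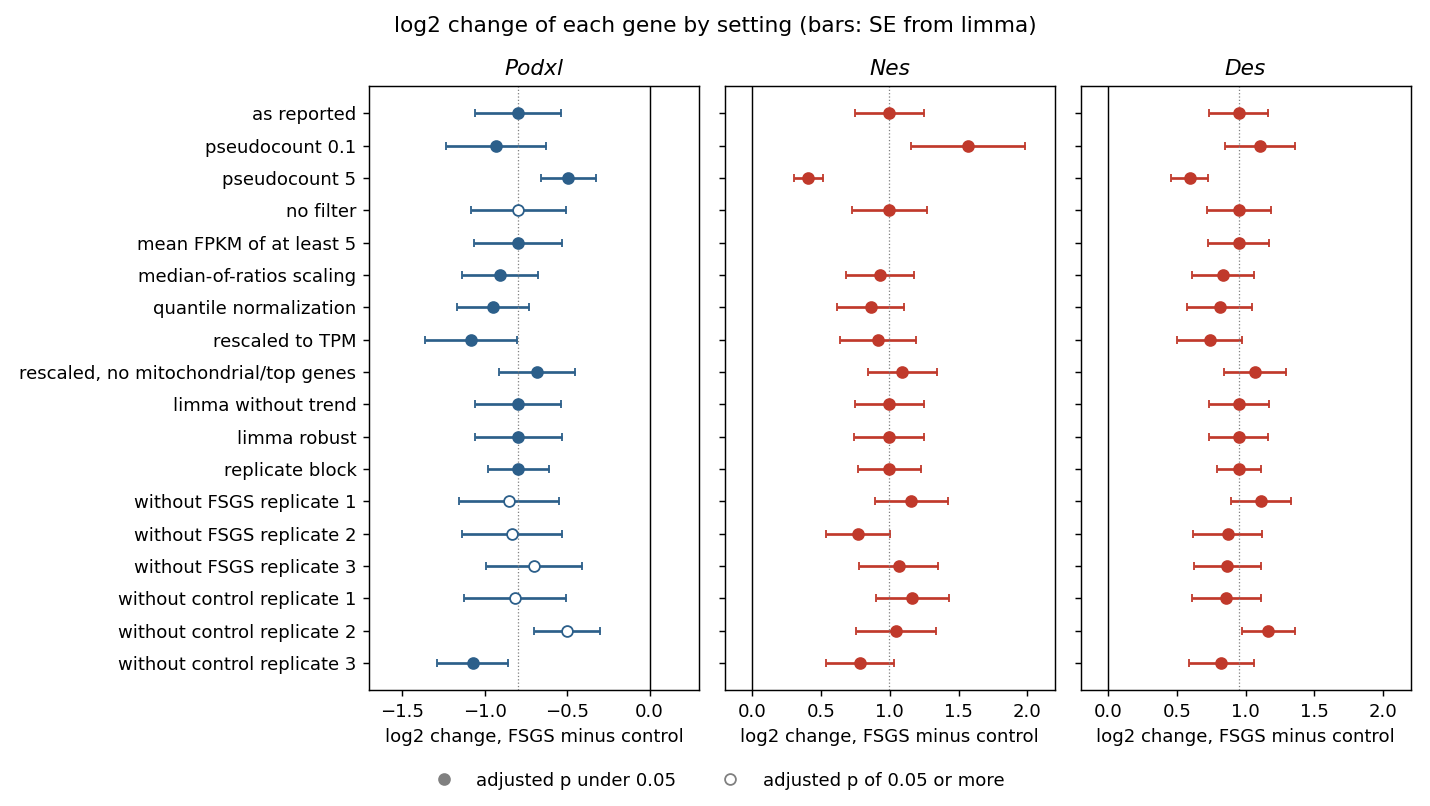
log2 change, FSGS minus control, of Podxl, Nes and Des with pseudocount 1 and under each alternative; points are estimates, bars are limma SE, filled points have an adjusted p under 0.05, and the dotted line marks the value as reported. All Podxl points lie left of 0, at -1.08 to -0.49, with 6 of them open, while all Nes and Des points lie right of 0 and are filled; Nes has no point at a mean of at least 5 FPKM, as it did not pass that filter.

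Wt1 RNA was listed under 1 FPKM in every library, a low level for a gene that podocytes are known to express. Apart from its chromosome, nothing in the files allows a check that this row measures Wt1, so its values hold for the ID alone. It stood at 0.09, 0.22 and 0.09 FPKM in FSGS replicates 1, 2 and 3, against 0.61, 0.14 and 0.05 FPKM in control replicates 1, 2 and 3, in a table that carries at most 2 decimals. The groups overlapped, and control 1 alone stood above 0.22 FPKM. Wt1 averaged 0.13 ± 0.08 FPKM in FSGS and 0.27 ± 0.30 FPKM in control kidneys (SD, n = 3 each). Its overall mean of 0.20 FPKM was under the filter, so it has no adjusted p over the genes tested. With no filter, over 21509 genes, its log2 change was -0.14 ± 0.16 (SE; limma adjusted p = 0.557). The difference was -0.26 to 0.05 when single libraries were left out, and it was above 0 without control replicate 1. A change of Wt1 RNA was thus not detectable at these levels, which does not show that its level was the same.

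The order of the 4 levels differed between the groups. FPKM is scaled by gene length, so levels of different genes are set side by side here as a description. The annotation behind those lengths is not given in the sources used here, so the order holds for the FPKM values as deposited. In each of the 3 FSGS libraries Des was the highest, at 6.58 FPKM or more, and Wt1 the lowest. Podxl and Nes overlapped there, at 2.99 to 3.92 and 2.09 to 4.29 FPKM, and Nes was above Podxl in FSGS replicate 2 alone. In each of the 3 control libraries Podxl was the highest, followed by Des, Nes and Wt1. The ranges of neighbours in that order overlapped for Podxl and Des and for Nes and Wt1, and not for Des and Nes.

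Ratios of 2 genes within a library were compared because a single scaling factor per column cancels from a plain FPKM ratio. Des was above Podxl in FPKM in every FSGS library, with FPKM ratios of 1.68, 2.53 and 3.23 in FSGS replicates 1, 2 and 3. The ratios were 0.501, 0.516 and 0.715 in control replicates 1, 2 and 3, so Des was below Podxl in each of them. On the log2(FPKM + 1) scale the ratio averaged 1.06 ± 0.40 in FSGS and -0.68 ± 0.26 in control kidneys (SD, n = 3 each), a difference of 1.75. The Nes to Podxl FPKM ratio was 0.533, 1.13 and 0.843 in FSGS replicates 1, 2 and 3, against 0.215, 0.0972 and 0.10 in control replicates 1, 2 and 3. Its log2 value averaged -0.24 ± 0.41 in FSGS and -2.03 ± 0.45 in control kidneys (SD, n = 3 each), a difference of 1.79. The pseudocount moved the size of both differences. For Des over Podxl the log2 difference was 1.09 with a pseudocount of 5 and 2.07 for the plain FPKM ratio, and for Nes over Podxl it was 0.90 and 2.64. Adding 1 also means that column scaling no longer cancels in full, and after rescaling to TPM the differences were 1.82 and 2.00.

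The groups did not overlap in either ratio in the values as reported. They also did not with a pseudocount of 0.1, 5 or none, after rescaling to TPM or with quantile normalization. Leaving out single libraries and the replicate block could not make separate groups overlap. The two-sided exact permutation p was 0.1 for both, the smallest that 3 against 3 libraries allow, and 0.12 after Benjamini-Hochberg adjustment over the 6 pairs of genes compared. The design thus cannot pass the threshold for a ratio.

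For the ratio of Nes to Des the groups overlapped. The log2 ratio of Nes to Des was -1.29, -1.01 and -1.60 in FSGS replicates 1, 2 and 3, against -0.83, -1.69 and -1.52 in control replicates 1, 2 and 3. It averaged -1.30 ± 0.30 in FSGS and -1.35 ± 0.45 in control kidneys (SD, n = 3 each; exact permutation p = 0.9, also 0.9 after adjustment over the 6 pairs). The difference was 0.05, with -0.12 to 0.30 when single libraries were left out. It was 0.57 for the plain FPKM ratio (exact permutation p = 0.3) and 0.46 with a pseudocount of 0.1 (exact permutation p = 0.4), and the groups overlapped there too. With 3 libraries a group this does not show that the 2 genes changed alike.

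**Figure D3:**
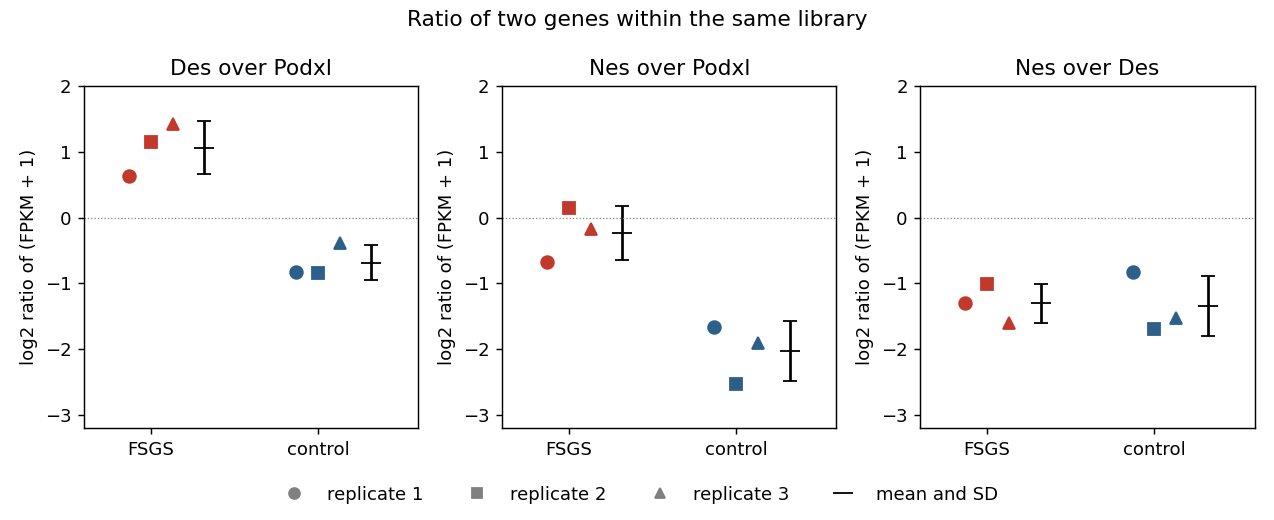
log2 ratio of (FPKM + 1) of Des over Podxl, Nes over Podxl and Nes over Des in each library, on 1 shared vertical axis; points are libraries with FSGS in red and control in blue, and bars are the mean and SD (n = 3). The FSGS and control points are apart in the first 2 panels, with differences of means of 1.75 and 1.79, and overlap in the third, with a difference of 0.05.

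The 3 ratios to Wt1 are dominated by the other gene, since Wt1 values are small beside the pseudocount of 1. The log2 differences, FSGS minus control, were 1.09 for Des, 1.13 for Nes and -0.66 for Podxl over Wt1. The exact permutation p was 0.1 for each, and 0.12 after adjustment. The separation of the groups depended on the pseudocount for Podxl and Des. For Podxl over Wt1 the groups overlapped with a pseudocount of 0.1 (exact permutation p = 0.5) and with none (exact permutation p = 0.6), and for Des over Wt1 they overlapped with none (exact permutation p = 0.2). For Nes over Wt1 they did not overlap with a pseudocount of 0.1, 5 or none, or after rescaling to TPM. Ratios with no pseudocount were chosen after seeing the data.

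Among the libraries of 1 group the 4 genes did not share 1 order. In controls, Podxl and Des were both highest in replicate 2 and lowest in replicate 3, while Nes and Wt1 were highest in replicate 1 and lowest in replicate 3. In FSGS libraries, Podxl was highest in replicate 1, Nes and Wt1 in replicate 2, and Des in replicates 2 and 3 at nearly the same level. Control replicate 3 had the lowest value of all 4 genes among controls. It also had the highest mitochondrial share among controls, at 62.9%, and the smallest median-of-ratios factor of all libraries, at 0.864; the part of these in its values was not tested. With median-of-ratios scaling the log2 changes were -0.91 for Podxl, 0.93 for Nes and 0.84 for Des, and all 3 remained called (limma adjusted p = 0.0144, 0.0173 and 0.0178).

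The likeness of patterns was measured as the root mean square (RMS) difference between log2(FPKM + 1) values over the 6 libraries, each gene first centred on its own mean. Between members it was smallest for Nes and Des, at 0.31, and largest for Podxl and Nes, at 0.96. Of 12692 other genes with a mean of at least 1 FPKM, the nearest to Des was ENSRNOG00000021110 on chromosome 2, with an RMS difference of 0.067, and 119 genes lay within 0.2. This gene stood at 2.59, 3.77 and 4.50 FPKM in FSGS and 1.02, 2.26 and 0.89 FPKM in control replicates 1, 2 and 3, and so shared with Des the high value in control 2. The nearest to Nes was ENSRNOG00000010607 on chromosome 3, with an RMS difference of 0.13, and 24 genes lay within 0.2. It stood at 8.55, 12.25 and 10.86 FPKM in FSGS and 6.34, 5.39 and 3.25 FPKM in control replicates 1, 2 and 3.

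The gene nearest to Podxl was ENSRNOG00000047191 on chromosome 12, with an RMS difference of 0.092, and 57 genes lay within 0.2. It stood at 2.93, 2.45 and 2.09 FPKM in FSGS and 5.07, 7.53 and 3.64 FPKM in control replicates 1, 2 and 3, the same order within each group as Podxl. For Wt1 the nearest was ENSRNOG00000018231 on chromosome 3, with an RMS difference of 0.04, and 1886 genes lay within 0.2. The RMS distance of the Wt1 values from their own mean was itself 0.21, against 0.53 to 0.59 for the other 3 genes, so this measure sets Wt1 less apart from other genes. Its nearest gene stood at 2.62, 3.13 and 2.62 FPKM in FSGS and 4.31, 2.74 and 2.74 FPKM in control replicates 1, 2 and 3, with control 1 highest as for Wt1, and was not called (limma adjusted p = 0.496). These genes have no names here, and with so many genes tested a close match in 6 libraries is a description alone.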

How the data were processed

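RNA of 6 rat kidney samples, 3 FSGS and 3 control, was enriched for poly(A) transcripts, made into dUTP-stranded libraries and sequenced from both ends, per the labels' protocols. Tools listed in the submitters' processing notes, with no role, are HISAT2 2.2.1, StringTie 2.1.6, cutadapt 1.9, edgeR and DESeq2; the sources used here do not give build, annotation or strand setting. The authors deposited FPKM values per gene, per the file headers, with no counts. Each value is relative to its library's total, so more of an abundant transcript means less of the rest. Groups came from the sample titles, and columns from the short names in the descriptions.

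Values were transformed as log2(FPKM + 1) for the 14139 genes with a mean of at least 0.5 FPKM and fitted with limma 3.58.1 (R 4.3.3) by group, with a mean-variance trend; the script was tested on simulated data. For ratios, exact permutation tests (two-sided, SciPy 1.17.1) were used. Settings varied were the pseudocount, the filter, column scaling, limma's options, a replicate block, and leaving out single libraries. All 4 members are named; for each, the rule for other named genes took the gene with the smallest RMS difference. The rescaling of columns without mitochondrial genes also left out the 20 most abundant nuclear genes. Symbols were matched to RefSeq promoters for 4 of 4 genes; the table of gene names carries no Ensembl IDs, so marker lists were not analysed here. The members and lists were chosen with earlier results of these data known.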

Additional observations from a re-analysis of the deposited data

How the results depend on the processing

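Nes and Des kept their call in all alternatives that tested them, and Podxl in 11 of 17. All 3 kept their direction, which only column scaling could have reversed, as their groups did not overlap. The log2 change of Podxl was -0.80 with no filter, where the call was lost. Its SE was 0.287 there against 0.261 as reported, and its limma p before adjustment was 0.0293 against 0.0143. The log2 change was -1.07 to -0.50 leaving out single libraries, and why 5 of those calls were lost was not tested. Each omission left 1 group with 2 libraries, and the call was kept without control replicate 3 (limma adjusted p = 0.00912). For Wt1 the difference was -0.38 with a pseudocount of 0.1 and -0.26 to 0.05 leaving out single libraries. The log2 ratio of Nes to Des, with a difference of 0.05, was 0.46 with a pseudocount of 0.1, 0.57 with none and -0.19 with one of 5, and ranged from -0.12 to 0.30 leaving out single libraries, below 0 without FSGS replicate 2 or control replicate 2 or 3; the cause was not tested. The other 5 ratios kept their sign throughout. Leaving out single libraries or the replicate block could not change it, as their groups did not overlap in the values as reported. Over the whole table, 3672 genes were called at a mean of at least 5 FPKM, 2068 higher and 1604 lower, as fewer were tested, and 2012 were called higher after rescaling to TPM, which divides FSGS columns by larger totals.

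A fit with a replicate block called 6900 genes, and limma adjusted p was 0.0178 for Podxl, 0.0162 for Nes and 0.00579 for Des, so no call of the 3 changed. Libraries that share a number deviated from their group means with correlations of 0.13, 0.03 and 0.02 across genes, and not every library matched its own number best, so the numbers were not taken as pairs. Depth is unknown, and with it the limit it sets for Wt1.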
